A study of Mus musculus with 6 samples.

Results

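The 31 genes described here encode enzymes that build sterols and fatty acids, together with the proteins that sense sterols and switch these genes on. They were taken as a list of names by pathway. The list sets no limit on any measured value, but it was drawn up with earlier results of these data known. All 31 matched 1 gene each in the mouse annotation, and all 31 were among the 17084 genes with enough reads to be tested, of 54123 genes with an annotated transcript. By step, 7 belong to the mevalonate segment, 11 lead from squalene to cholesterol, 5 sense or carry sterols and 8 make fatty acids. Total RNA had been sequenced from satellite cells, the stem cells of skeletal muscle, sorted by flow cytometry from adult C57BL/6 mice. Every group had received cardiotoxin, a snake toxin that kills muscle fibres, in the tibialis anterior and gastrocnemius muscles, and the cells were taken 30 h after the injury. Jmjd3 KO cells carried a knockout of the histone demethylase gene Kdm6b (Jmjd3), Utx KO cells one of its X-linked relative Kdm6a (Utx), and Tdt control cells were the control. Each genotype had 2 libraries. The sources used here do not give the promoter or Cre behind each deletion or the number of mice per library. They do not say whether replicates came from separate animals. The p-values below therefore measure only the spread between these libraries.

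Cholesterol is built from acetyl-CoA through mevalonate, isoprenoid diphosphates, squalene and lanosterol, and the same acetyl-CoA feeds the making of fatty acids. Transcription of both sets of genes is driven by the SREBP proteins, which Srebf1 and Srebf2 encode. SCAP carries SREBP out of the endoplasmic reticulum when membrane cholesterol is low, and INSIG proteins hold the pair back when sterols are plentiful, so that the sterol genes tend to be transcribed together. Activated satellite cells enlarge, divide and make new membrane, for which they need both lipids.

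Upstream windows of 4 sterol genes and 1 fatty acid gene are shown because SREBP acts through short elements near the start site, usually beside binding letters for its partner NF-Y. Each window holds the 250 bases before the RefSeq transcription start in GRCm38.p6, written 5′ to 3′ on the strand of the gene. Capitals mark 2 kinds of match, on either strand: the sterol regulatory element TCACNCCAC and the NF-Y letters CCAAT, which read ATTGG when the match is on the other strand. Where 2 CCAAT matches share bases they appear as 1 run of capitals.
Hmgcs1 (HMG-CoA synthase; chr13:119690101-119690350, plus strand): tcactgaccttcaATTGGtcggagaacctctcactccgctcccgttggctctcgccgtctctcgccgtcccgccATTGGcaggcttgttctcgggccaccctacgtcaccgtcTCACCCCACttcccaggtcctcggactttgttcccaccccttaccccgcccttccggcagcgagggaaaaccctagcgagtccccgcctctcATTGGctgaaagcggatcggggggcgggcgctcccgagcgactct
Idi1 (isopentenyl diphosphate isomerase; chr13:8885356-8885605, plus strand): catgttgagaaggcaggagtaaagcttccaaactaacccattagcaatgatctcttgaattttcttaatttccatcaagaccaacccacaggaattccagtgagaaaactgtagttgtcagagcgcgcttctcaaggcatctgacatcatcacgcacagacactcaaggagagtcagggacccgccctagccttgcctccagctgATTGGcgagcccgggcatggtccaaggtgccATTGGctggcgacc
Cyp51 (lanosterol demethylase; chr5:4104698-4104947, minus strand): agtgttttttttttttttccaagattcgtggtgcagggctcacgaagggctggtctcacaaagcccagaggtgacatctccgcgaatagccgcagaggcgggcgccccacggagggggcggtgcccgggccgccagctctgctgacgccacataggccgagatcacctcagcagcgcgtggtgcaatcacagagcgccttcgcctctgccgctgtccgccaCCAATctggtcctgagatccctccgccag
Msmo1 (methylsterol oxidase; chr8:64733579-64733828, minus strand): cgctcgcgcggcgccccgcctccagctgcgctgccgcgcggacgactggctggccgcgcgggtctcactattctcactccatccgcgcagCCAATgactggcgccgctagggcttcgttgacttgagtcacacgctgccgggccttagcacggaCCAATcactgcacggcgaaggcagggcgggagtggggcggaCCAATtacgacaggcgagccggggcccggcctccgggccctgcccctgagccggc
Fasn (fatty acid synthase; chr11:120824548-120824797, minus strand): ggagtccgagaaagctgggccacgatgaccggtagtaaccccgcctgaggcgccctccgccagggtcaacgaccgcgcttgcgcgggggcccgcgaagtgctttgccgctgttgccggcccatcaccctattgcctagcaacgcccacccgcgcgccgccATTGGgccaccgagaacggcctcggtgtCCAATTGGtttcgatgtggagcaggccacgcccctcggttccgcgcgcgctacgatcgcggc
Of the 31 genes, 25 had a window in the RefSeq table; Fdps, Fdft1, Sqle, Stard4, Scd1 and Scd2 did not. CCAAT was found upstream of 14 of the 15 sterol enzyme genes with a window (Acat2 lacked it), of 3 of 4 sensing genes and of 3 of 6 fatty acid genes, against 40.0% of the 11321 tested genes with a window. The Sp1 letters GGGCGG stood upstream of 14 of those 15 sterol enzyme genes (Pmvk lacked them), against 62.1% of tested genes. TCACNCCAC was found for Hmgcs1 and for no other of the 25 genes, against 1.22% of tested genes, and the E-box CACGTG for 5 of the 25, against 9.70%. A gene with several windows counted as 1, and as a match where any window held the letters. Me1 held CCAAT in the 1 of its 2 windows that lies further into the gene and not in the other. Dhcr7 likewise held it only in the window furthest into the gene, and not in those at the gene's start. The Acaca window starts inside the annotated gene. Both strands were read, and CCAAT matches could share bases with each other. These are matches of letters, and elements that differ from the searched letters by a base are not counted.

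The libraries held 53750675 to 77675388 estimated reads, of which 0.151% to 0.176% lay on transcripts that matched no annotated gene. Kdm6b had 15.9 and 16.5 CPM (estimated reads scaled to a common normalized library size) in Jmjd3 KO, against 29.9 and 22.7 in Tdt control, a log2 fold change of -0.70 ± 0.12 (SE; edgeR quasi-likelihood test, Benjamini-Hochberg adjusted p = 0.0243). Without either Jmjd3 KO library that call was lost (adjusted p = 0.167 and 0.123, edgeR). Kdm6a had 7.68 and 7.38 CPM in Utx KO, against 32.8 and 34.0 in Tdt control (-2.15 ± 0.06, edgeR adjusted p = 1.0e-05). The satellite cell gene Pax7 stood between 134 and 148 CPM in the 6 libraries. It is 1 of 8 satellite cell markers, which did not all stay level. Against control, 1 of the 8 was called higher and 1 lower in each knockout (edgeR). Of all tested genes 1.97% and 1.03% were so called in Jmjd3 KO, and 0.790% and 0.925% in Utx KO. Between the knockouts 1 was higher and 2 lower in Jmjd3 KO (all tested genes: 5.13% and 2.89%). Markers of other cells also moved with genotype. The summed CPM of 11 neutrophil markers was 283 and 221 in Jmjd3 KO, 191 and 223 in Utx KO, and 143 and 155 in Tdt control. For 12 macrophage and monocyte markers it was 306 and 281 in Jmjd3 KO, 184 and 218 in Utx KO, and 204 and 250 in Tdt control. The 10 mature fibre markers summed to 6359 and 6618 CPM in Jmjd3 KO, 4470 and 5231 in Utx KO, and 4829 and 5040 in Tdt control. The 10 fibro-adipogenic markers summed to 1296 and 1278 CPM in Jmjd3 KO, 1079 and 1236 in Utx KO, and 1145 and 1120 in Tdt control. In Jmjd3 KO against Utx KO 4 of them were higher (edgeR, adjusted p under 0.05), where 5.13% of all tested genes were. So were 2 of 10 tested neutrophil, 6 of 12 macrophage and 4 of 10 mature fibre markers. In Jmjd3 KO against control the counts were 0 fibro-adipogenic, 5 neutrophil, 2 macrophage and 3 fibre markers (all tested genes: 1.97%). None of these 4 lists had a lower call in either of those comparisons. In Utx KO against control 1 neutrophil marker was called higher and 1 fibre marker lower (all tested genes: 0.790% and 0.925%). The macrophage and fibro-adipogenic lists had 0 calls there, with 10 of 12 and 8 of 10 markers negative. At an unadjusted p under 0.05 (edgeR), 7 and 5 were lower and 0 and 2 higher (16.2% of all genes in either direction). For 8 Schwann cell markers the sum was 14.1 and 11.95 CPM in Jmjd3 KO, 7.31 and 7.77 in Utx KO, and 9.21 and 10.9 in Tdt control. Of the 7 tested, edgeR called 1 higher in Jmjd3 KO and 1 lower in Utx KO against control (all tested genes: 1.97% and 0.925%). It called 1 higher in Jmjd3 KO against Utx KO (all tested genes: 5.13%). The 9 endothelial markers summed to 50.7 and 65.5 CPM in Jmjd3 KO, 50.7 and 45.2 in Utx KO, and 58.2 and 65.3 in Tdt control. Both Utx KO sums lay below both control sums. In that comparison 8 of the 9 markers were negative and 0 were called (edgeR). At an unadjusted p under 0.05, 4 of the 9 were lower and 0 higher (16.2% of all genes in either direction). The part of these cells in the results below was not tested. Fat cells express many of these genes too. Of their defining markers, Cidec and Lep had 0 reads in every library and Adipoq had at most 1. The 8 adipocyte markers, of which 3 had enough reads to be tested, summed to 37.3 and 37.3 CPM in Jmjd3 KO, 38.3 and 35.3 in Utx KO, and 34.6 and 37.3 in Tdt control. The 3 did not move together, and 0 were called (edgeR). Their log2 fold changes ran from -0.51 to 0.26 in Jmjd3 KO against control and from -0.46 to 0.46 against Utx KO. In each, 1 was higher and 1 lower at an unadjusted p under 0.05 (20.0% and 25.6% of all genes in either direction). In Utx KO against control 0 were.

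On the TPM scale, which divides by transcript length and so allows genes to be compared, the sterol regulator gene Srebf2 had the highest level of the 31, with a mean of 41.5 TPM over the 6 libraries (39.6 to 42.8) and rank 1577 among tested genes. The fatty acid genes Acly (34.0 TPM, range 32.4 to 34.9), Fasn (29.0 TPM, 27.3 to 30.8) and Acaca (26.6 TPM, 24.6 to 27.5) came next. Fdps (25.6 TPM) and Idi1 (24.7 TPM) were the highest sterol enzymes, with ranges (22.2 to 28.3 and 21.7 to 29.1) that overlapped those of Fasn and Acaca. At the low end stood the acetate-activating gene Acss2 (1.49 TPM) and the sterol reductase gene Tm7sf2 (0.493 TPM, 31 to 52 reads per library). Tm7sf2 is therefore the least precisely measured of the 31 genes. Levels below are on the CPM scale, per gene, and differences are fitted log2 fold changes with their SE.

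**Figure D1:**
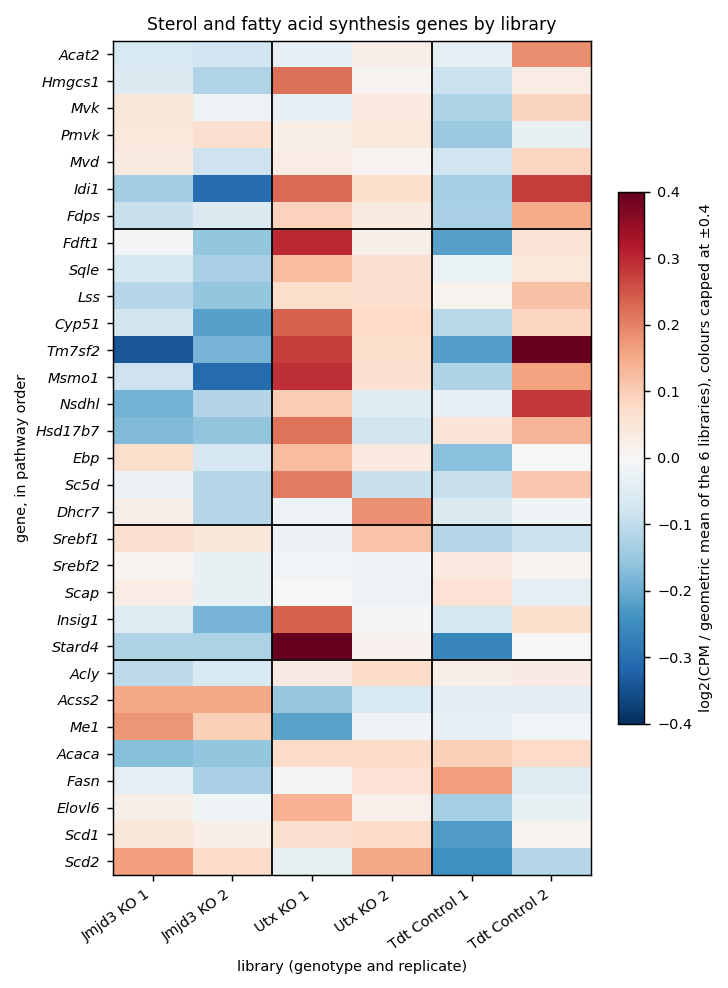
Level of each of the 31 genes (rows, in pathway order, the 4 groups set apart by lines) in each of the 6 libraries (columns), as log2 of CPM over the gene's geometric mean, with colours capped at ±0.4. Most sterol enzyme rows are red in Utx KO replicate 1 and Tdt control replicate 2. Most are blue in Jmjd3 KO replicate 2 and also in Tdt control replicate 1. Acaca is blue in both Jmjd3 KO libraries and in no other.

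Of the 31 genes, 1 was lower and none higher in Jmjd3 KO than in Tdt control (edgeR, adjusted p under 0.05), where 1.03% of all tested genes were lower and 1.97% higher. The called gene was Acaca. Their median log2 fold change was -0.06 (all tested genes: -0.0047), and 21 of 31 were negative. At an unadjusted p under 0.05, 2 were higher and 6 lower, where 20.0% of all genes passed in either direction. Both libraries of 1 genotype lay above both of the other for 7 genes that were higher and 9 that were lower in Jmjd3 KO, where 26.2% and 25.5% of all genes did so. Without Tdt control replicate 2 the median was 0.0051, so its sign rests on that library, and it was -0.12 without Tdt control replicate 1. In bulk RNA, fewer cells that express a gene and less of its RNA in each cell cannot be told apart.

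In Utx KO against Tdt control, 0 of the 31 genes were called by edgeR, where 0.790% of all tested genes were higher and 0.925% lower. At an unadjusted p under 0.05, 4 were higher and 0 lower (16.2% of all genes in either direction), and DESeq2 also called 0. The smallest adjusted p was 0.186, for Scd2. The median was 0.06 (all genes: -0.0022), 22 of 31 genes were positive, and 8 were higher and 3 lower without overlap of the libraries (22.3% and 23.3% of all genes). Without Tdt control replicate 2 the median was 0.17, and 0.02 without Tdt control replicate 1.

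The knockouts themselves differed more. Between Jmjd3 KO and Utx KO 5.13% of all tested genes were higher and 2.89% lower in Jmjd3 KO, and of the 31 again 1, Acaca, was lower. Here 23 of 31 were negative, with a median of -0.13 (all genes: 0.0014). Between the 2 libraries of a knockout the median of the 31 varied by 0.033 (SD, pooled over both knockouts). The same spread was 0.072 for Jmjd3 KO with Tdt control and 0.066 for Utx KO with Tdt control. Both exceed in size the medians of those comparisons, -0.06 and 0.06. These spreads are of the median over all 31 genes, whose groups moved apart between the 2 Utx KO libraries. Replicate 2 minus replicate 1 there had a median of -0.16 for the 11 squalene to cholesterol genes and 0.05 for the 8 fatty acid genes. Libraries did not overlap for 18 genes that were lower and 2 that were higher in Jmjd3 KO, where 28.6% of all genes were lower and 28.6% higher without overlap. At an unadjusted p under 0.05, 11 were lower and 2 higher (25.6% of all genes in either direction). DESeq2 called 4 of the 31 lower: Acaca, Sqle (adjusted p = 0.0456), Cyp51 (adjusted p = 0.0168) and Msmo1 (adjusted p = 0.0279). How many of all genes DESeq2 called between the knockouts is not given here, so these 4 have no share beside them. Against the control DESeq2 called more of all genes than edgeR did, 1083 against 513 in Jmjd3 KO and 701 against 293 in Utx KO. The 3 comparisons share libraries and are not independent of each other.

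**Figure D2:**
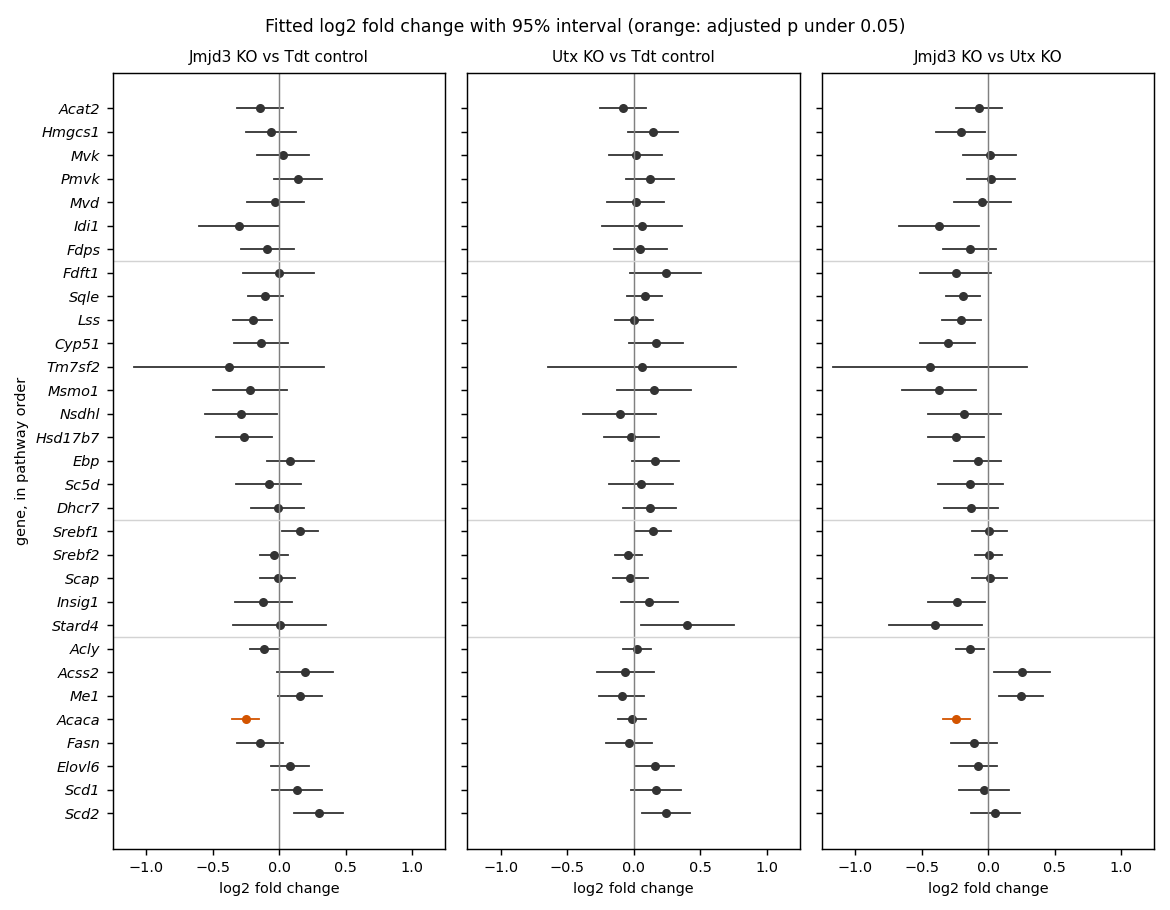
Fitted log2 fold change (points) with its 95% interval (lines) for each of the 31 genes in the 3 comparisons, in pathway order; orange marks an adjusted p under 0.05. Acaca is the orange point in both comparisons of Jmjd3 KO, and the 11 genes from squalene to cholesterol lie left of 0 in Jmjd3 KO against Utx KO.

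Among the regulators, Srebf2 and Scap were close to level. Srebf2 stood between 234 and 246 CPM in the 6 libraries and Scap, which encodes the escort of SREBP, between 111 and 119 CPM. Their log2 fold changes between Jmjd3 KO and Utx KO were 0.00 (95% interval -0.10 to 0.10) and 0.01 (-0.12 to 0.15). Srebf1, which encodes the form tied to fatty acid synthesis, had 55.2 and 54.5 CPM in Jmjd3 KO, 51.9 and 57.1 in Utx KO, and 48.7 and 49.7 in Tdt control. Both knockouts lay above the control without overlap, but neither difference passed: 0.16 ± 0.06 in Jmjd3 KO (edgeR adjusted p = 0.194) and 0.15 ± 0.06 in Utx KO (edgeR adjusted p = 0.274). With transcript length offsets Srebf1 in Utx KO was 0.34 (edgeR adjusted p = 0.0873). The authors' deposited table called Srebf1 in Utx KO (0.29, adjusted p = 0.00374).

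Insig1 and Stard4, which are themselves SREBP targets, varied more. Insig1, the sterol-dependent anchor of SCAP, ranged from 51.9 to 57.0 CPM in Jmjd3 KO, 58.8 to 69.5 in Utx KO and 56.2 to 62.0 in Tdt control. Stard4, a carrier of cholesterol between membranes, had 17.5 and 17.5 CPM in Jmjd3 KO, 27.0 and 19.3 in Utx KO, and 15.9 and 19.1 in Tdt control. The Utx KO mean rests on its first library, and the fitted difference from control was 0.40 ± 0.15 (edgeR adjusted p = 0.248). Between Jmjd3 KO and Utx KO, Insig1 differed by -0.24 ± 0.09 (edgeR adjusted p = 0.160) and Stard4 by -0.40 ± 0.15 (edgeR adjusted p = 0.149), and neither passed.

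In the mevalonate segment both Jmjd3 KO libraries lay below both Utx KO libraries for 4 of the 7 genes, Acat2, Hmgcs1, Idi1 and Fdps, where 28.6% of all genes did so. None of the 7 was called in any comparison (edgeR; 1, 0 and 2 lower and 0 higher at an unadjusted p under 0.05 for Jmjd3 KO over control, Utx KO over control and Jmjd3 KO over Utx KO). Idi1, the isomerase that makes the second isoprenoid building block, had 55.9 and 49.9 CPM in Jmjd3 KO, 72.1 and 64.6 in Utx KO, and 56.2 and 74.5 in Tdt control. Both Jmjd3 KO libraries were the lowest of the 6, though the first was almost level with control replicate 1, with a log2 fold change of -0.30 ± 0.13 against control (edgeR adjusted p = 0.246) and -0.37 ± 0.13 against Utx KO (edgeR adjusted p = 0.128). The HMG-CoA synthase gene Hmgcs1, whose window holds the sterol regulatory element shown above, had 61.6 and 58.9 CPM in Jmjd3 KO, 74.6 and 64.6 in Utx KO, and 60.4 and 65.3 in Tdt control. Its Utx KO libraries were above both Jmjd3 KO libraries (Jmjd3 KO against Utx KO -0.21 ± 0.08, edgeR adjusted p = 0.155) and overlapped the control.

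Pmvk, the phosphomevalonate kinase gene, was higher in both knockouts than in the control without overlap, with 10.2 and 10.4 CPM in Jmjd3 KO, 10.1 and 10.2 in Utx KO, and 8.94 and 9.69 in Tdt control. The log2 fold changes were 0.14 ± 0.08 in Jmjd3 KO and 0.12 ± 0.08 in Utx KO and did not pass (edgeR adjusted p = 0.353 and 0.493). For Acat2, Mvk, Mvd and Fdps, which encode a thiolase, a kinase, a decarboxylase and farnesyl diphosphate synthase, the log2 fold changes over the 3 comparisons ran from -0.14 (Acat2, Jmjd3 KO against control) to 0.05 (Fdps, Utx KO against control). Over the 7 genes, 5 were negative in Jmjd3 KO against Tdt control, 6 positive in Utx KO against Tdt control and 5 negative in Jmjd3 KO against Utx KO.

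Along the 11 genes from squalene to cholesterol the differences between the knockouts had the same sign in every gene, although edgeR called none of them (5 lower and 0 higher at an unadjusted p under 0.05). In Jmjd3 KO against Utx KO 11 of 11 were negative, 8 of them without overlap of the libraries (28.6% of all genes), with a median of -0.20. Within Utx KO 10 of the 11 were lower in replicate 2 than in replicate 1, with a median log2 difference of -0.16. Within Jmjd3 KO 8 of the 11 were (median -0.09). Against Tdt control, 10 of 11 were negative in Jmjd3 KO (median -0.13), and 9 of 11 positive in Utx KO (median 0.08). In the 15 alternative analyses of Jmjd3 KO against Utx KO, 10 or 11 of the 11 stayed negative. These genes tend to be transcribed together, so the 11 signs are not 11 independent observations.

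Cyp51, the demethylase of lanosterol, had 56.3 and 51.0 CPM in Jmjd3 KO, 69.8 and 62.6 in Utx KO, and 54.9 and 62.9 in Tdt control. The knockouts did not overlap (-0.30 ± 0.09, edgeR adjusted p = 0.0804), and the control spanned the gap between them. Msmo1, the next oxidase of the chain, had 34.6 and 29.6 CPM in Jmjd3 KO, 44.8 and 38.2 in Utx KO, and 33.7 and 41.0 in Tdt control. Its difference between the knockouts was -0.37 ± 0.12 (edgeR adjusted p = 0.104), with the control again reaching across it.

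Sqle, the squalene epoxidase gene and a rate-limiting step, had 57.9 and 55.3 CPM in Jmjd3 KO, 65.9 and 63.1 in Utx KO, and 59.4 and 62.3 in Tdt control. Jmjd3 KO was lowest and Utx KO highest, with no overlap among the 3 genotypes. Jmjd3 KO against Utx KO gave -0.19 ± 0.06 (edgeR adjusted p = 0.0868). Lss, which closes the sterol rings, had 16.2 and 15.7 CPM in Jmjd3 KO, 18.3 and 18.3 in Utx KO, and 17.6 and 18.9 in Tdt control. Jmjd3 KO was the lowest of the 3 genotypes for Lss, by -0.20 ± 0.06 against the control (edgeR adjusted p = 0.137) and -0.20 ± 0.06 against Utx KO (edgeR adjusted p = 0.0960). Lss TPM did not separate the groups (2.51 and 4.09 in Jmjd3 KO, 2.74 and 4.85 in Utx KO, 3.70 and 4.55 in Tdt control).

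Hsd17b7, a sterol ketone reductase, had 22.8 and 23.1 CPM in Jmjd3 KO, 30.0 and 24.5 in Utx KO, and 26.8 and 28.4 in Tdt control. Nsdhl, the X-linked dehydrogenase that acts with it, had 8.53 and 8.97 CPM in Jmjd3 KO, 10.4 and 9.40 in Utx KO, and 9.51 and 11.8 in Tdt control. In both genes the 2 Jmjd3 KO libraries were below the 4 others, and the difference from control was -0.26 ± 0.09 for Hsd17b7 (edgeR adjusted p = 0.165) and -0.29 ± 0.12 for Nsdhl (edgeR adjusted p = 0.228).

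Fdft1, the squalene synthase gene, had 31.0 and 28.0 CPM in Jmjd3 KO, 38.3 and 31.7 in Utx KO, and 26.8 and 32.4 in Tdt control, where the first Utx KO library stood alone above the rest. Ebp, the X-linked sterol isomerase gene, had 29.1 and 26.4 CPM in Jmjd3 KO, 30.2 and 28.4 in Utx KO, and 24.7 and 27.6 in Tdt control. Ebp was the 1 gene of the segment that was positive in Jmjd3 KO against control (0.09 ± 0.07), and in Utx KO it was 0.16 ± 0.08 (edgeR adjusted p = 0.579 and 0.341). The authors' deposited table gave Ebp 0.32 in Jmjd3 KO (adjusted p = 0.0518). Its TPM was 18.4 and 13.9 in Jmjd3 KO, 14.2 and 12.7 in Utx KO, and 10.3 and 12.2 in Tdt control. The short transcript Ebp-204 (660 bases) had 214 and 79.3 reads in Jmjd3 KO and 0 in every other library. Tm7sf2, Sc5d and Dhcr7, which encode a reductase, a desaturase and a reductase of a final step, had fold changes from -0.44 (Tm7sf2, Jmjd3 KO against Utx KO, 95% interval -1.16 to 0.29) to 0.12 (Dhcr7, Utx KO against control).

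**Figure D3:**
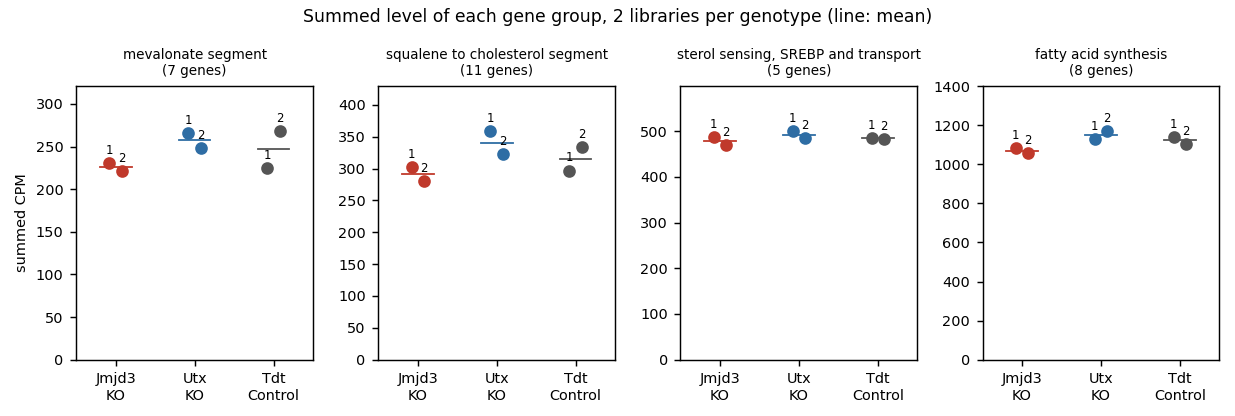
Summed CPM of the 4 gene groups (vertical axis, from 0) in the 2 libraries of each genotype (points, numbered by replicate) with the mean (line). Both sterol segments separate Jmjd3 KO from Utx KO, while the 2 Tdt control libraries reach across the gap. The sensing genes sum to 469.8 to 499 CPM and the fatty acid genes to 1056 to 1168 CPM.

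The 2 Tdt control libraries differed from each other in the sterol enzyme genes. Summed over the 7 mevalonate genes the level was 231 and 222 CPM in Jmjd3 KO, 266 and 249 in Utx KO, and 225 and 268 in Tdt control. Over the 11 later sterol genes it was 302 and 281 CPM in Jmjd3 KO, 358 and 323 in Utx KO, and 297 and 334 in Tdt control. Control replicate 1 thus lay at the level of the Jmjd3 KO libraries, and control replicate 2 at that of the Utx KO libraries.

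Gene by gene, all 18 sterol enzymes were higher in Tdt control replicate 2 than in replicate 1, by 0.04 (Dhcr7) to 0.59 (Tm7sf2) on the log2 scale with a median of 0.20, whereas 49.8% of all tested genes were higher there. In Jmjd3 KO 5 of the 18 were higher in replicate 2 (median -0.07), and in Utx KO 4 of the 18 (median -0.12). The median gap of 0.20 between the control libraries was larger than the median difference of either knockout from the control in either sterol segment. Of the 8 fatty acid genes 6 were higher in Tdt control replicate 2, with a median of 0.01, and among them Scd1 was higher by 0.24, Scd2 by 0.13 and Elovl6 by 0.11. Of the 5 sensing genes 3 were higher there (median 0.03), among them Stard4 by 0.26 and Insig1 by 0.14. Of the 18 enzymes, 15 were negative in Jmjd3 KO against Tdt control with both control libraries, 9 without control replicate 2 and 16 without control replicate 1. In Utx KO against Tdt control 3 of the 18 were negative with both, 0 without control replicate 2 and 10 without control replicate 1. In Jmjd3 KO against Utx KO, whose fold changes compare no control library, 16 of the 18 were negative. Between control replicates 1 and 2 the neutrophil sum was 143 and 155 CPM, the macrophage sum 204 and 250 CPM and the depth 77675388 and 65893124 estimated reads, and the part of these in the shift was not tested.

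**Figure D4:**
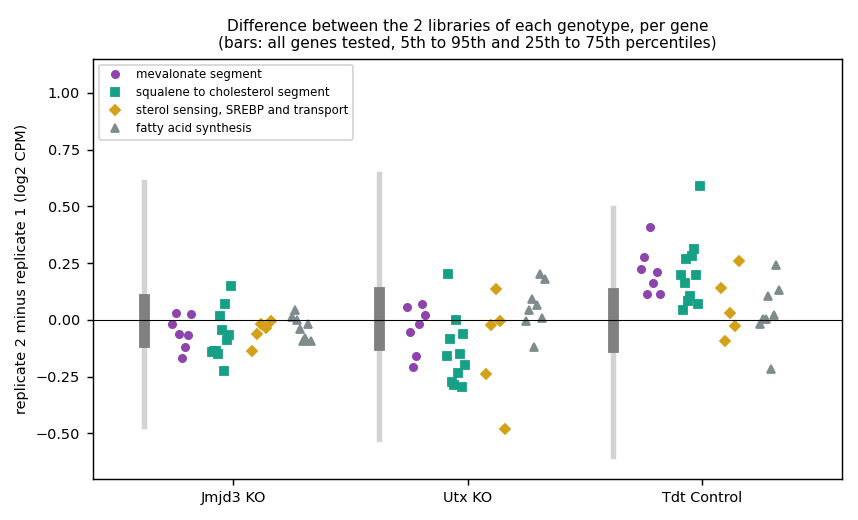
Difference between the 2 libraries of each genotype (replicate 2 minus replicate 1, log2 CPM) for each of the 31 genes, by group, with grey bars for the 5th to 95th (light) and 25th to 75th (dark) percentiles of all tested genes. In Tdt control the 18 sterol enzymes all lie above 0, with a median of 0.20, and in Utx KO 14 of the 18 lie below 0.

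Fatty acid genes split into some that were lower and some that were higher in Jmjd3 KO. Acaca, which encodes acetyl-CoA carboxylase, the rate-limiting enzyme of fatty acid synthesis, had 192 and 194 CPM in Jmjd3 KO, 228 and 227 in Utx KO, and 231 and 228 in Tdt control. The 2 Jmjd3 KO libraries lay below the other 4, which ranged from 227 to 231 CPM. Acaca (ENSMUSG00000020532.18, GRCm38 chr11:84129672-84401651) fell by 0.25 ± 0.04 on the log2 scale against the control (edgeR adjusted p = 0.0299), which is 1.19-fold, and by 0.24 ± 0.04 against Utx KO (edgeR adjusted p = 0.0200). In Utx KO against control the difference was -0.01 (95% interval -0.11 to 0.09). The call against control was lost with any 1 of the 6 libraries left out (adjusted p from 0.0556 to 0.190, log2 fold change from -0.26 to -0.24), with only the 4 libraries compared (0.0597), and with transcript length offsets, where the change was -0.12 (adjusted p = 0.432), all in edgeR. It was kept with DESeq2 (adjusted p = 2.0e-05). The call against Utx KO was lost without any 1 of the 4 knockout libraries (edgeR adjusted p from 0.0772 to 0.120) and with length offsets (-0.16, edgeR adjusted p = 0.230).

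Acaca has several transcripts. Its full-length transcript Acaca-201 (9026 bases) had 11.7 and 11.7 TPM in Jmjd3 KO, 13.2 and 13.3 in Utx KO, and 13.2 and 13.7 in Tdt control, and held most of the reads. The short transcript Acaca-206 (431 bases) had 6.31 and 2.67 TPM in Jmjd3 KO, 5.25 and 5.33 in Utx KO, and 4.79 and 5.33 in Tdt control, from 72.5 to 176 reads. TPM divides by length, so the few reads of short transcripts weigh heavily in it. The gene's summed TPM, 27.4 and 24.6 in Jmjd3 KO, 27.2 and 27.3 in Utx KO, and 25.5 and 27.5 in Tdt control, did not separate the genotypes.

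Other genes of the path from citrate to palmitate pointed the same way as Acaca without passing. Acly, whose enzyme splits citrate to acetyl-CoA, had 218 and 224 CPM in Jmjd3 KO, 239 and 246 in Utx KO, and 238 and 239 in Tdt control. The Jmjd3 KO libraries were again the lowest, with -0.11 ± 0.05 against control (edgeR adjusted p = 0.227) and -0.14 ± 0.05 against Utx KO (edgeR adjusted p = 0.116). Fasn, the fatty acid synthase gene, had 368 and 345 CPM in Jmjd3 KO, 375 and 393 in Utx KO, and 424 and 364 in Tdt control, so that the control spanned both Utx KO libraries and the first Jmjd3 KO library, and the second Jmjd3 KO library was the lowest (Jmjd3 KO against control -0.14 ± 0.07, edgeR adjusted p = 0.332).

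Genes that finish, desaturate or supply the chain were higher in Jmjd3 KO than in the control, without passing. Scd2, a desaturase that makes monounsaturated fatty acids, had 139 and 131 CPM in Jmjd3 KO, 122 and 138 in Utx KO, and 105 and 115 in Tdt control. Both knockouts lay above the control, by 0.30 ± 0.08 (edgeR adjusted p = 0.0907) and 0.24 ± 0.08 (edgeR adjusted p = 0.186). DESeq2 called Scd2 in Jmjd3 KO (0.30, adjusted p = 0.00697) and not in Utx KO (adjusted p = 0.0539). Its neighbour on chromosome 19, the desaturase gene Scd1, had 86.2 and 85.1 CPM in Jmjd3 KO, 87.3 and 87.8 in Utx KO, and 71.4 and 84.4 in Tdt control, where only control replicate 1 stood well below the rest. Scd1 and Scd2 are close in sequence, and reads they share could have been divided between them in quantification. Elovl6, the elongase that follows palmitate, had 44.5 and 43.4 CPM in Jmjd3 KO, 48.3 and 44.5 in Utx KO, and 40.0 and 43.0 in Tdt control, with 0.08 ± 0.06 and 0.16 ± 0.06 in the knockouts (edgeR adjusted p = 0.490 and 0.253).

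Me1 and Acss2 were highest in Jmjd3 KO. Me1, the malic enzyme that supplies NADPH, had 29.4 and 27.9 CPM in Jmjd3 KO, 22.5 and 25.8 in Utx KO, and 25.5 and 25.9 in Tdt control. Acss2, which makes acetyl-CoA from acetate, had 6.52 and 6.52 CPM in Jmjd3 KO, 5.28 and 5.63 in Utx KO, and 5.69 and 5.71 in Tdt control. For both genes the Jmjd3 KO libraries lay above the 4 others, and against Utx KO the difference was 0.25 ± 0.07 for Me1 (edgeR adjusted p = 0.0829) and 0.26 ± 0.09 for Acss2 (edgeR adjusted p = 0.130).

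**Figure D5:**
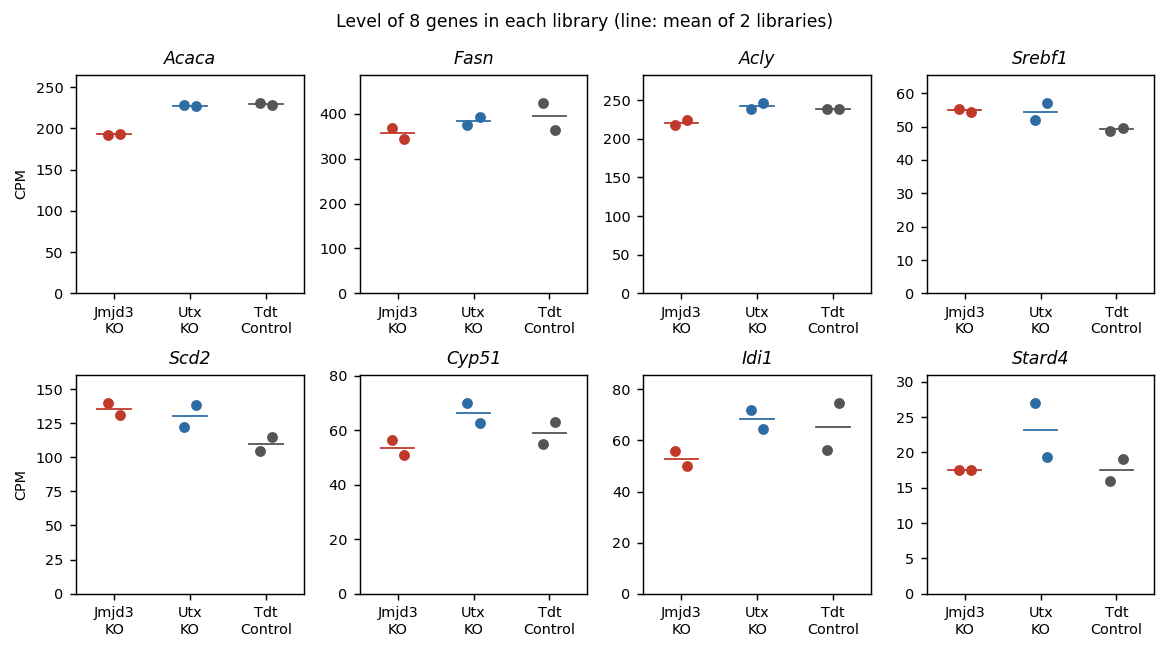
CPM (vertical axes, from 0) of 8 genes in the 2 libraries of each genotype (points) with the mean (line). The Acaca points of Jmjd3 KO (192 and 194 CPM) lie apart from the other 4 (227 to 231 CPM), and those of Srebf1 and Scd2 are lowest in Tdt control. For Cyp51 the control points span the gap between the knockouts. For Idi1 both control points lie above both Jmjd3 KO points, the lower of them only just (56.2 against 55.9 CPM).

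Acaca, Acly, Fasn and Srebf1 lie on chromosome 11, as does the deleted gene Kdm6b (GRCm38 chr11:69398508-69413675). In Jmjd3 KO against Tdt control, 8.10% of the 1284 tested genes on chromosome 11 were called, against 2.59% of the 15800 elsewhere. The shares were 14.5% and 7.49% in Jmjd3 KO against Utx KO. Between Utx KO and Tdt control they were 1.32% and 1.75%. Acaca lies 14.9 Mb from Kdm6b, and within 20 Mb of Kdm6b 11.6% of 571 tested genes were called in Jmjd3 KO against control, 36 higher and 30 lower. Srebf1 lies 9.20 Mb away on the other side, and Acly and Fasn 31.1 and 51.4 Mb away. An effect of the Jmjd3 deletion on Acaca through the cell and a difference in the chromosome around the deleted gene cannot be told apart here.

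Of 76 other tested genes of lipid pathways, 1 was higher in Jmjd3 KO than in Tdt control (1.32%, against 1.97% of all tested genes) and 0 were lower. In Utx KO against Tdt control 1 was higher and 1 lower (1.32% each, against 0.790% and 0.925% of all tested genes). In Jmjd3 KO against Tdt control, 1 of 21 other genes of sterol sensing and traffic was called, Abca1, whose protein exports cholesterol from cells. Abca1 had 20.3 and 21.1 CPM in Jmjd3 KO, 17.7 and 17.7 in Utx KO, and 14.4 and 13.8 in Tdt control. It rose in both knockouts, by 0.56 ± 0.06 in Jmjd3 KO (edgeR adjusted p = 0.00456) and 0.33 ± 0.06 in Utx KO (edgeR adjusted p = 0.0440). Soat1, whose enzyme stores cholesterol as esters, had 172.9 and 169.9 CPM in Jmjd3 KO, 145 and 148 in Utx KO, and 179 and 184 in Tdt control. It fell in Utx KO, by 0.31 ± 0.05 against control (edgeR adjusted p = 0.0288). The call of Abca1 in Jmjd3 KO was kept without any 1 of the 6 libraries. Both calls in Utx KO were lost without any 1 of them, with edgeR adjusted p from 0.105 to 0.189 for Abca1 and 0.0665 to 0.187 for Soat1. Their log2 fold changes in those fits ran from 0.31 to 0.36 for Abca1 and from -0.33 to -0.28 for Soat1. Macrophages express Abca1 too, and the part of their higher marker sum in Jmjd3 KO in its difference was not tested. They also express Soat1. Of their 12 markers 10 were negative and 2 positive in Utx KO against control, with 0 called (edgeR). The part of these cells in the fall of Soat1 was not tested. Abca1 and Soat1 were the 2 calls of the sterol sensing and traffic list in Utx KO. In either knockout against the control, 0 of 17 other isoprenoid and sterol genes were called (edgeR). So were 0 of 31 tested genes of other fatty acid and lipid synthesis and 0 of 7 NADPH-supplying genes. At an unadjusted p under 0.05 (edgeR), in that order, 0, 5 and 0 were higher and 1, 2 and 0 lower in Jmjd3 KO. In Utx KO 1, 4 and 0 were higher and 6, 1 and 1 lower. Of all tested genes 20.0% and 16.2% passed in either direction. In Utx KO the medians of the 3 lists were -0.11 (10 of 17 negative), 0.08 (24 of 31 positive) and -0.08 (5 of 7 negative). The 31 genes described here had 0.06.

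Between the knockouts, 3 of these 76 genes were higher and 3 lower in Jmjd3 KO than in Utx KO (3.95% each), where 5.13% of all tested genes were higher and 2.89% lower. Abcg1, another cholesterol exporter gene, had 4.01 and 3.30 CPM in Jmjd3 KO, 1.95 and 1.75 in Utx KO, and 2.51 and 2.29 in Tdt control. It was higher in Jmjd3 KO than in Utx KO by 0.98 ± 0.16 (edgeR adjusted p = 0.0140), and Soat1 was higher by 0.23 ± 0.05 (edgeR adjusted p = 0.0307). Por, the reductase that passes electrons to enzymes such as Cyp51 and Sqle, had 121 and 119 CPM in Jmjd3 KO, 98.5 and 103 in Utx KO, and 111 and 111 in Tdt control (0.25 ± 0.05 between the knockouts, edgeR adjusted p = 0.0330). Of the genes for elongating very long chains, Hsd17b12 had 85.3 and 83.0 CPM in Jmjd3 KO, 107 and 102 in Utx KO, and 92.1 and 101 in Tdt control. Hacd1 had 25.3 and 23.1 CPM in Jmjd3 KO, 29.4 and 31.8 in Utx KO, and 27.2 and 28.2 in Tdt control. Both were lower in Jmjd3 KO than in Utx KO, Hsd17b12 by -0.31 ± 0.06 (edgeR adjusted p = 0.0289) and Hacd1 by -0.34 ± 0.07 (edgeR adjusted p = 0.0222). The sixth, the desaturase gene Scd4, rests on 1 to 10 reads per library. Only its Utx KO libraries reached the level that the low-count filter asks for, so it was tested through the group where it was highest. Its call, counted among the 3 lower, is therefore no support for a difference. Without any 1 of the 4 knockout libraries the calls of Por, Soat1, Hsd17b12 and Hacd1 were lost (edgeR adjusted p from 0.0618 to 0.197). That of Abcg1 was lost without Jmjd3 KO replicate 1, Utx KO replicate 1 or Utx KO replicate 2 (edgeR adjusted p from 0.0649 to 0.0913). Abcg1 and Soat1 are also expressed in macrophages, whose 12 markers were all higher in Jmjd3 KO than in Utx KO (6 of 12 called), and the part of those cells in these 2 differences was not tested.

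The authors' deposited tables, which compare each knockout with the control and whose fold changes come from a method not stated there, called 1 of the 31 genes in each. In the authors' deposited table for Jmjd3 KO it was Scd2 (log2 fold change 0.25, adjusted p = 0.0214), with 6.10% of 14359 genes called. In the authors' deposited table for Utx KO it was Srebf1, with 4.21% of 14941 genes called. Acaca stood at -0.08 in the authors' deposited table for Jmjd3 KO, with an adjusted p of 0.463. In the edgeR fit with transcript length offsets, Srebf1 in Utx KO (0.34) and Acaca in Jmjd3 KO (-0.12) lay closer to the values in the authors' deposited tables than in the fit without them (0.15 and -0.25).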

How the data were processed

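The 6 libraries of total RNA from sorted satellite cells were grouped by the genotype in their labels. The submitters' processing notes list cutadapt 2.6, Salmon 1.1.0, DESeq2 1.28.1 and the builds mm10 and GRCm38 with no role for any of them. Per the file headers, the deposited quantification files give estimated counts (reads) and TPM for each transcript. For each knockout the authors deposited a table with, per the file headers, the base mean (a signal averaged over samples), a log2 fold change with its standard error, a p-value and an adjusted p-value. How those fold changes were computed is not stated.

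Reads were added up over the transcripts of each gene with GENCODE M21 (GRCm38), a release chosen here, and rounded. All 6 libraries were fitted together in edgeR 4.0.16 (R 4.3.3) with TMM factors, filterByExpr and a genotype term, and tested by quasi-likelihood. Of the genes, 17084 passed the filter, the common biological coefficient of variation was 0.0844, and 3 residual degrees of freedom remained. Reads on transcripts of no annotated gene (0.151% to 0.176%) were dropped. A gene was called where its p, adjusted by the Benjamini-Hochberg method across every gene tested in that comparison, was under 0.05. CPM use the normalized library sizes. No source used here states whether strand was used in counting, so overlapping and antisense genes may share reads.

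The 31 genes, the other lists and the markers were chosen with earlier results of these data known. Values in every library are given for each of the 31 called in a comparison and for the 10 with the smallest p in each comparison. Up to 4 called genes per other list are named. Libraries of a genotype differed by more than sampling noise (chi-square per degree of freedom 14.0 to 23.9). The edgeR steps were tested on simulated data, where the share of false calls lay above the nominal level in each comparison. The alternatives tried were DESeq2 1.42.0, the RLE and upper-quartile factors, dropping the low-count filter or setting it at 5 CPM in 2 libraries, offsets for transcript length, fits on the 4 libraries of a comparison, a replicate block, leaving out chromosome 11, and leaving out each library. Counts of negative genes per segment were added after the data were seen. Upstream windows come from RefSeq, GRCm38.p6.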

Additional observations from a re-analysis of the deposited data

Results flagged for a closer look

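Among the 31 genes, the targeted genes with Uty, and the other lipid genes, 9 differed between the knockouts in their change from the control, by the edgeR test of Jmjd3 KO against Utx KO, which called 1370 of all 17084 genes. Among the 31 genes this was Acaca (-0.24, adjusted p = 0.0200), at 192 and 194 CPM in Jmjd3 KO and 228 and 227 in Utx KO. Of the targeted genes and their Y-linked relative, it was Kdm6a (2.06, adjusted p = 5.8e-06), at 30.3 and 32.4 CPM in Jmjd3 KO and 7.68 and 7.38 in Utx KO, and Uty (-0.80, adjusted p = 0.0350), at 4.27 and 3.08 CPM in Jmjd3 KO and 6.75 and 6.03 in Utx KO. Of the other lipid genes, Por (0.25, adjusted p = 0.0330), Abcg1 (0.98, adjusted p = 0.0140) and Soat1 (0.23, adjusted p = 0.0307) were higher in Jmjd3 KO. Hsd17b12 (-0.31, adjusted p = 0.0289), Hacd1 (-0.34, adjusted p = 0.0222) and Scd4 (-2.85, adjusted p = 0.0481) were lower in Jmjd3 KO. Scd4 had 2 and 1 reads in Jmjd3 KO, 10 and 10 in Utx KO, and 3 and 6 in Tdt control, so its fitted fold depends on the prior count. It passed the low-count filter through the Utx KO libraries alone, where it was highest. Its call, counted among the 9, is therefore no support for a difference.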

How the results depend on the processing

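No called value of a gene changed sign under the alternatives run, and the cause of each change below was not tested except where fewer genes or libraries entered. In Jmjd3 KO against Tdt control, 1 of the 31 genes was called; DESeq2 called 2, no low-count filter 4, and transcript length offsets, only the 4 libraries compared, the replicate block, no chromosome 11 and every fit without 1 library 0. Of the other lipid genes 1 was called, against 3 with DESeq2, 5 with no filter and 2 with length offsets. Over all genes 513 were called, against 1083 with DESeq2, 1872 with no filter, 331 with length offsets, 322 with the replicate block and 113 to 434 without 1 library. In Utx KO against Tdt control, 0 of the 31 were called and 3 with no filter. Of the other lipid genes 2 were called, against 5 with no filter, 1 with the 5 CPM filter and 0 with length offsets, with the 4 libraries, with the block and without any 1 library. Over all genes 293 were called, against 701 with DESeq2, 1399 with no filter, 131 with length offsets, 119 with the 4 libraries, 133 with the block and 16 to 96 without 1 library. The median of the 31 genes there was 0.06, and 0.020 to 0.17 without 1 library. In Jmjd3 KO against Utx KO, 1 of the 31 was called, against 4 with DESeq2, 10 with no filter, 2 with the 4 libraries, 0 with length offsets, the block and no chromosome 11, and 0 to 3 without 1 library. Of the other lipid genes 6 were called, against 14 with no filter, 1 with length offsets, 10 with the 4 libraries, 3 with the block and 0 to 8 without 1 library. Over all genes 1370 were called, against 2856 with no filter, 792 with length offsets and 291 to 1387 without 1 library, and the median of the 31 was -0.13, from -0.15 to -0.089 without 1 library. A lone library left in a genotype was assumed to vary like the others.

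Samples share replicate numbers across genotypes, but deviations of same-numbered libraries did not go together (correlation over genes -0.0081, -0.011 and -0.053), so the numbers were not taken as pairs. With the replicate block Acaca had an adjusted p of 0.0894 against Tdt control and 0.0614 against Utx KO.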
